A study of Mus musculus with 56 samples.

Results

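The genes followed here encode 10 transcription factors of the AP-1 family and its IRF partners: the BATF genes Batf and Batf3, the FOS genes Fos, Fosl1 and Fosl2, the JUN genes Jun, Junb and Jund, and the interferon regulatory factor genes Irf4 and Irf8. They were chosen as a family with earlier results of these data known, and they are 10 of the 47937 genes listed in each of 2 tables of read counts. All 10 passed the filter on low counts in the table of Odc deletion and 9 passed it in the table of Dohh deletion, where Irf8 was listed at 0 in every library. The counts come from mRNA sequencing of CD4+ T cells of C57BL/6 mice, taken from spleen and lymph nodes by negative selection, activated with antibodies to CD3 and CD28 plus IL-2, and analysed on day 4 of polarization. Negative selection is meant to remove B, myeloid, CD8 T and NK cells, and the study's methods describe the starting cells as naive, which the labels do not state. TH1 cells received IL-12, IL-2 and antibody to IL-4, and TH2 cells received IL-4, IL-2 and antibody to IFN-γ. TH17 cells received IL-6, TGF-β and IL-1, and Treg cells received TGF-β and IL-2, in both cases with antibodies to IL-4 and IFN-γ. KO libraries come from mice in which CD4Cre, a Cre recombinase driven by the CD4 promoter, was crossed to floxed Odc or floxed Dohh, so that deletion begins in developing thymocytes and also reaches CD8 T cells. WT libraries come from control mice, and each table has its own. The Odc table holds 4 WT and 4 KO libraries per subset, except in TH2 cells, where KO replicate 1 was not analysed here and 3 KO libraries remain. The Dohh table holds 3 WT and 3 KO libraries per subset. By the study's methods the mice were typically young adults, and the series' text calls the replicates biological.

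AP-1 is a dimer of basic leucine zipper proteins, in which a FOS or BATF protein pairs with a JUN protein and binds the same short DNA site. BATF lacks the activation domain of FOS, and BATF with JUN partners recruits IRF4 or IRF8 to composite sites at genes of activated T cells. IRF4 is induced by the T cell receptor, and BATF, JUNB and IRF4 are best known in CD4+ T cells for their need in TH17 and TH2 differentiation, whereas BATF3 and IRF8 are best known from dendritic cells. Ornithine decarboxylase, encoded by Odc1, starts polyamine synthesis, and Dohh encodes deoxyhypusine hydroxylase, which completes the amino acid hypusine on the translation factor eIF5A from the polyamine spermidine.

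All 10 genes are protein coding, and their positions are those of GENCODE M21 on GRCm38. Batf lies at chr12:85686669-85709087 on the plus strand, 3 exons long in its longest transcript, and Batf3 at chr1:191097847-191108945 on the plus strand with 4 exons. Irf4 lies at chr13:30749226-30766976 on the plus strand and Irf8 at chr8:120736358-120756694 on the plus strand, each with up to 9 exons. Fos lies at chr12:85473890-85477273 on the plus strand, Fosl1 at chr19:5447547-5455946 on the plus strand and Fosl2 at chr5:32135801-32157842 on the plus strand, each with up to 4 exons. Jun lies at chr4:95049034-95052222 on the minus strand, Junb at chr8:84974484-84978718 on the minus strand and Jund at chr8:70698949-70700616 on the plus strand, and Jun and Jund are single-exon genes. Some of these exons are shared with a gene on the opposite strand: Ccdc85b covers 57.2% of the exon length of Fosl1, Gm11175 52.6% of that of Jund, Prdx2 7.52% of that of Junb and Junos 7.28% of that of Jun. The libraries were stranded, but the strand setting of the counting is not given in the sources used here, so reads of Fosl1 and Jund cannot be told apart from those of their partners with certainty. In CPM, the count scaled to the depth of its library, group means of Ccdc85b were 13.4 to 25.2 for Odc libraries and 28.7 to 70.2 for Dohh libraries. Gm11175 stayed below 1 CPM in every group mean.

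Batf3, Fosl2 and Irf4 were called in 5 or more of the 8 KO comparisons, more than any other member, and the RefSeq promoters of these 3 genes are therefore shown, each from 250 bases before to 50 bases after the transcription start. A RefSeq promoter was found for 9 of the 10 genes. Each sequence is printed 5′ to 3′ on the strand of the gene, from GRCm38.p6, at chr1:191098164-191098463 for Batf3, chr5:32136222-32136521 for Fosl2 and chr13:30748983-30749282 for Irf4, all on the plus strand. Capitals mark matches to any of the motifs searched on both strands.
Batf3: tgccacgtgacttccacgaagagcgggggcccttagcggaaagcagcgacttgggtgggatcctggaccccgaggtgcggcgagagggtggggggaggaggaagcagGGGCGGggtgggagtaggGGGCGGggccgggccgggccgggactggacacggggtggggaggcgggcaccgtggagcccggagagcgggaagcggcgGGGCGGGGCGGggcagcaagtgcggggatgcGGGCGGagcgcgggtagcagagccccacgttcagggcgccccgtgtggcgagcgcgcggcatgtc
Fosl2: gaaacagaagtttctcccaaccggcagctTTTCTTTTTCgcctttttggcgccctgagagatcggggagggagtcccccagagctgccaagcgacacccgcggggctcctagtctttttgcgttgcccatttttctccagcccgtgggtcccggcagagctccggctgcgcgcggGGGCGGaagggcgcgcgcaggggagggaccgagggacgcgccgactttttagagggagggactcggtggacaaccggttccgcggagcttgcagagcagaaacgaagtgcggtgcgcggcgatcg
Irf4: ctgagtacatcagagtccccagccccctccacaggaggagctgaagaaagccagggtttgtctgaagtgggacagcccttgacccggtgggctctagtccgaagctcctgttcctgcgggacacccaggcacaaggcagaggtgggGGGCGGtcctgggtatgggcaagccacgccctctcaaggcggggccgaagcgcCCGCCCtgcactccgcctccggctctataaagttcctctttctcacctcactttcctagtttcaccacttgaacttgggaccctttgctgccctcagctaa

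The motifs were the AP-1 site TGANTCA, its CRE form TGACGTCA, the IRF site, which is GAAA followed by any 2 bases and GAAA again, the GC box GGGCGG and 2 composites of AP-1 and IRF sites. The gapped composite is TGANTCA followed by any 4 bases and GAAA, and the joined composite is GAAA followed directly by TGANTCA. Both composites contain the AP-1 letters, so a match to them is also a match to the AP-1 site. The AP-1 letters occurred in 7.81% of 32851 promoters, the CRE form in 1.79%, the gapped composite in 0.119% and the joined composite in 0.125%, and none of these letters occurred in the windows of the 9 members. The IRF letters occurred in 3.44% of promoters and in 1 member, Fosl2, on the minus strand 221 bases before the start. GC boxes occurred in 35.7% of promoters and in 7 of the 9 members, among them Batf3 with 5 matches, Irf4 with 2 and Fosl2 with 1. The Batf3 window was 75.7% G and C, against 64.7% for Fosl2 and 61.0% for Irf4. A match to these letters is a description of the sequence and no measure of binding.

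Odc libraries held 5905374 to 9145214 counts and Dohh libraries 6572148 to 12576933, so that 3 counts, the most that a count of 0 allows, equal 0.31 to 0.499 CPM and 0.226 to 0.473 CPM. The reads carry no molecular identifiers, and this floor covers counting error only. The tables were not counted alike, since 275 genes had at least 500 counts in the Odc table and at most 5 in the Dohh table, Irf8 among them with 78981 counts against 0. Odc1 was not called lower in Odc KO libraries (group means of 469 to 610.3 CPM, against 407 to 733 CPM in WT), and Dohh was called higher in 3 of the 4 subsets of Dohh KO. These counts cover the whole gene, undeleted exons included, and so do not check the genotype labels. Cd4 fell in all 4 subsets of Dohh KO, from WT means of 702 to 941 CPM to KO means of 36 to 61.3 CPM. Of 8 T cell identity markers, Cd4 and Cd2 were called lower in each Dohh KO subset and the other 6 were not called, with list medians of -0.49 to 0.0294. In Odc KO TH2 cells 4 of the 8, Cd4 (696 to 347 CPM), Cd2, Cd3d and Cd3g, were called lower with a list median of -0.994, against 0 in the other 3 Odc KO subsets, and the part of this in the TH2 values of Odc KO was not tested. All 7 basophil and mast cell markers were called higher in all 8 KO comparisons. Summed CD8 T and NK cell markers were at 74.6 to 879 CPM in Dohh KO libraries against 27.4 to 128 CPM in WT, and higher in Odc KO libraries of each subset but TH2, with a part in the results that was not tested. Within this list Klrk1 and Klrd1, receptor genes of NK cells, were called higher in all 4 Dohh KO subsets and Cd8a in TH2, TH17 and Treg cells. Cd8b1, the other CD8 chain, was called lower in Dohh KO TH1 and TH2 cells and was not called in TH17 and Treg cells (log2 fold change -0.51 ± 0.22 SE, adjusted p = 0.0562 and -0.01 ± 0.22 SE, adjusted p = 0.975). A marker sum of 12 myeloid and dendritic cell genes reached 4688 and 1656 CPM in replicates 2 and 3 of Dohh KO TH17 cells and 3120 and 2002 CPM in replicates 2 and 3 of Dohh KO Treg cells, against 130.1 and 102.7 CPM in replicate 1 of each and at most 43.4 CPM in the 12 WT libraries. The TH17 and Treg comparisons of the Dohh table were also fitted without these 4 libraries, which leaves 1 KO library in each. Where the call of a named gene changed, the value from that fit is given. In that fit 6 of the 7 basophil and mast cell markers were called higher in TH17 and 5 in Treg cells, and Cd3g was called higher in TH17 cells (log2 fold change 1.07, adjusted p = 0.0156, against 0.71 ± 0.25 SE, adjusted p = 0.0223 with all libraries). Since the libraries are bulk, fewer cells of a type and less RNA per cell cannot be told apart.

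The levels in WT subsets were compared first, per kilobase of exon so that genes can be set beside each other. Across the 4 WT subsets, 8 of 10 members were called in the Odc table, where 33.2% of all genes tested were called, and 7 of 9 in the Dohh table, where 26.4% were called. A call required an adjusted p below 0.05 over the 4 means and a span of more than 2-fold. Junb, Jund and Irf4 were the most abundant members per exon length in most subsets, joined by Batf in TH2 cells, and Fos and Fosl1 were the least abundant of the genes detected, except in Treg cells of the Odc table, where Batf3 (3.30 ± 0.749 CPM per kb) lay below Fos (6.85 ± 0.656). In the Odc table Junb ranged from 142 ± 19.7 CPM per kb (SD, n = 4) in Treg cells to 309.8 ± 31.1 in TH1 cells, whereas Fosl1 ranged from 0.894 ± 0.311 in TH17 cells to 3.72 ± 0.451 in TH2 cells.

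**Figure D1:**
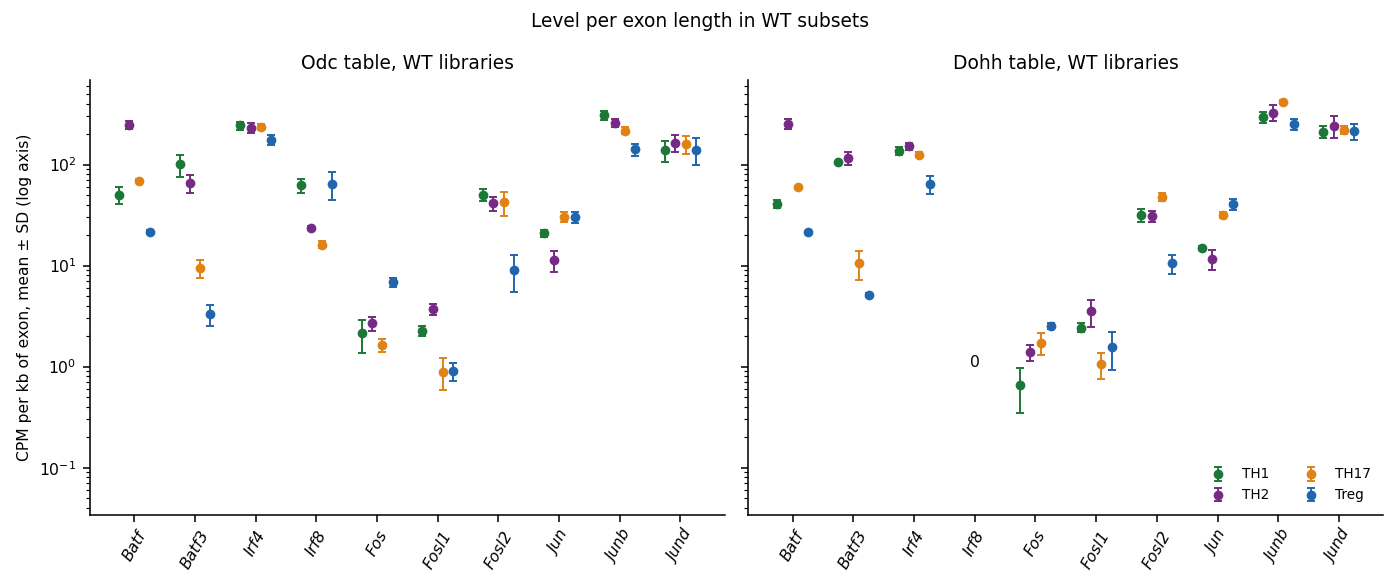
Level of each member in the 4 WT subsets of each table, as mean CPM per kilobase of exon with SD (n = 4 libraries per group in the Odc table, n = 3 in the Dohh table), on a log axis. Batf was highest in TH2 cells and Batf3 lowest in Treg cells in both tables, and Irf8 was listed at 0 in the Dohh table.

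Batf and Batf3 had the widest range between subsets. Batf was highest in TH2 cells, at 348 ± 32.5 CPM (SD, n = 4) among Odc libraries and 358 ± 38.4 CPM (n = 3) among Dohh libraries, and lowest in Treg cells, at 30.2 ± 1.34 and 30.0 ± 0.374 CPM. TH17 and TH1 cells lay between, at 96.8 ± 3.33 and 70.2 ± 13.3 CPM in the Odc table, and differed from each other by less than 2-fold (log2 difference 0.46 ± 0.15 SE, adjusted p = 0.0116), as they did in the Dohh table (log2 difference 0.56 ± 0.18 SE, adjusted p = 0.0302). Every other pair of WT subsets was called for Batf, except Treg against TH1 in the Dohh table (log2 difference -0.92 ± 0.19 SE, adjusted p = 0.000651).
Batf3 was high in TH1 cells, at 160.3 ± 40.5 and 168 ± 2.56 CPM, and in TH2 cells, at 105 ± 21.8 and 186 ± 28.8 CPM, and the difference between these subsets was not called in either table. It was low in TH17 cells, at 15.1 ± 3.12 and 16.8 ± 5.34 CPM, and lowest in Treg cells, at 5.27 ± 1.20 and 8.16 ± 0.427 CPM. Treg cells had less Batf3 than TH17 cells in the Odc table (log2 difference -1.52 ± 0.31 SE, adjusted p = 0.000284), whereas the same difference of -1.05 did not pass in the Dohh table (adjusted p = 0.164).

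Irf4 was nearly even across WT subsets of the Odc table, at 1197 ± 107, 1136 ± 131, 1157 ± 69.5 and 868 ± 102 CPM in TH1, TH2, TH17 and Treg cells, a span of 0.46 on the log2 scale. The Dohh table had a wider span of 1.25, with 748 ± 59 CPM in TH2 cells and 316 ± 62.8 CPM in Treg cells, which were called lower than TH1 and TH2 cells. Treg cells had the lowest Irf4 mean in both tables. Irf8, measured in the Odc table alone, was high in Treg cells (454 ± 137 CPM) and TH1 cells (438 ± 73.1 CPM), which did not differ beyond their spread (log2 difference 0.05 ± 0.15 SE, adjusted p = 0.808). It was lower in TH2 cells (168 ± 8.23 CPM) and TH17 cells (114 ± 8.23 CPM), and these last 2 differed by less than 2-fold (log2 difference -0.55 ± 0.16 SE, adjusted p = 0.00438).

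Among the FOS genes, Fosl2 was the abundant one. It was lowest in Treg cells, at 88.2 ± 35.5 and 102 ± 21.6 CPM, and its other 3 subsets, between 300.2 and 489.0 CPM in mean, were not called against one another in either table. Fos was highest in Treg cells, at 16.1 ± 1.54 and 5.99 ± 0.438 CPM. In the Odc table Treg cells were called above each other subset for Fos, while in the Dohh table they were called above TH1 cells alone. Fosl1 was highest in TH2 cells, at 7.57 ± 0.918 and 7.22 ± 2.16 CPM, and lowest in TH17 cells, at 1.82 ± 0.633 and 2.16 ± 0.644 CPM. The difference between TH2 and TH1 cells was under 2-fold in the Odc table (log2 difference 0.72 ± 0.23 SE, adjusted p = 0.0217), and the difference between TH17 and Treg cells did not pass in either table (adjusted p = 1.0 and 0.415).
Of the JUN genes, Jun was lowest in TH2 cells, at 35.9 ± 8.30 and 37.3 ± 8.35 CPM. TH17 and Treg cells had the highest Jun levels, at 96.9 ± 11.7 and 96.8 ± 12 CPM in the Odc table, and the difference between them did not pass (log2 difference -0.0015 ± 0.13 SE, adjusted p = 0.997). Junb was lower in Treg than in TH1 cells of the Odc table (log2 difference -1.13 ± 0.10 SE, adjusted p = 4.26e-10), and was not called in the Dohh table (adjusted p = 0.211 over the 4 subsets). Jund was not called in either table, with spans of 0.24 and 0.20 on the log2 scale.

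KO libraries of each subset were then set against the WT libraries counted with them, and a member was called at more than 2-fold and a Benjamini-Hochberg adjusted p below 0.05 over all genes tested. In Odc KO cells, TH1 cells had 0 members called higher and 1 lower, where 10.2% of all genes were called higher and 11.3% lower. TH2 cells had 0 higher and 1 lower, against 11.5% and 13.6% of all genes. TH17 cells had 2 higher and 2 lower of 10, against 8.35% and 7.21%, and Treg cells had 2 higher and 3 lower, against 13.9% and 10.1%. In Dohh KO cells 9 members could be tested. TH1 cells had 5 higher and 2 lower, where 14.8% of all genes were called higher and 14.2% lower. TH2 cells had 0 higher and 2 lower, against 14.3% and 11.6%, TH17 cells 2 higher and 3 lower, against 17.3% and 14.1%, and Treg cells 2 higher and 1 lower, against 17.5% and 15.2%. The median log2 fold change of the members ranged from -0.29 in Dohh KO Treg cells to 1.1 in Dohh KO TH1 cells, while that of all genes tested lay between -0.00193 and 0.0731 in the 8 comparisons. Many calls lay near the fold threshold, and when a change of more than 2-fold was itself tested (glmTreat) 2 of the 7 members in Dohh KO TH1 cells and 1 of the 4 in Odc KO TH17 cells were still called. By member, Fosl2 was called lower in 8 of 8 comparisons and Irf4 in 5 of 8, and Batf3 was called higher in 5 of 8. Fosl1 was called higher in 3 of 8, Jund in 2, Batf in 1 and Fos in 2, with Fos lower in 1. Junb was called lower in 1, and Jun in none of 8, although in 1 of them, Odc KO TH1 cells, it had an adjusted p of 0.0236 at less than 2-fold. Irf8 was called in none of the 4 comparisons in which it was measured.

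**Figure D2:**
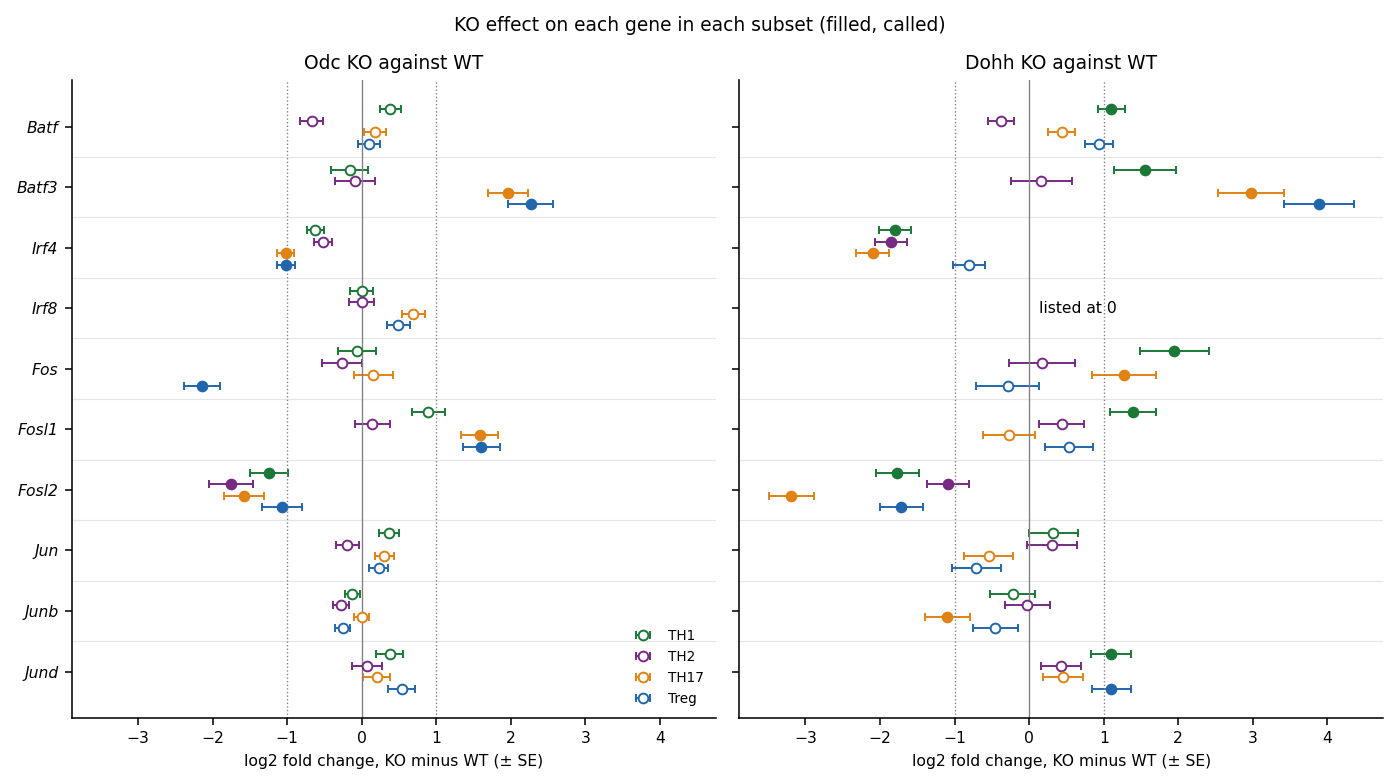
Log2 fold change of each member, KO minus WT, with its SE, in the 4 subsets of the Odc table (left) and the Dohh table (right). Filled points were called at more than 2-fold (dotted lines) and adjusted p below 0.05. All 8 points of Fosl2 lie left of the lower dotted line, and all 8 of Irf4 lie left of 0.

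Fosl2, which encodes the FOS family protein FRA-2, was lower in KO cells of every subset in both tables, by 2.09-fold to 9.12-fold. In TH1 cells of the Odc table the WT libraries had 544, 493, 519.7 and 399.7 CPM and the KO libraries 289.9, 159.6, 198 and 178 CPM, in replicate order. Every KO library lay below every WT library, with a log2 fold change of -1.25 ± 0.26 (SE, adjusted p = 0.000272).
TH2 cells had 455, 406, 426 and 313 CPM in WT and 84.8, 148 and 123 CPM in KO replicates 2 to 4. The groups were again apart, with a log2 fold change of -1.75 ± 0.29 (SE, adjusted p = 2.13e-05).
TH17 cells had 463, 453, 477 and 248 CPM in WT and 205, 113, 99.2 and 130.3 CPM in KO libraries. WT replicate 4 was far below its group and yet above all KO libraries, and the log2 fold change was -1.58 ± 0.26 (SE, adjusted p = 4.38e-05).
Treg cells had 111, 72.6, 123 and 46 CPM in WT and 50.2, 39, 37.7 and 42 CPM in KO libraries. Here the groups overlapped, because WT replicate 4 lay below KO replicate 1, and the log2 fold change of -1.06 ± 0.27 (SE, adjusted p = 0.00137) dropped under 2-fold without WT replicate 1 (-0.93), without WT replicate 3 (-0.86) and in limma with a donor correlation (-0.97).

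Dohh KO cells had lower Fosl2 levels in each subset with no overlap of the groups. In TH1 cells the WT libraries had 355, 287 and 277 CPM and the KO libraries 84.4, 42.9 and 142 CPM. The KO libraries were spread over more than 3-fold among themselves and still lay below WT, with a log2 fold change of -1.77 ± 0.29 (SE, adjusted p = 4.42e-05).
TH2 cells had 337, 264 and 300.4 CPM in WT and 170.4, 134 and 119 CPM in KO libraries. This was the mildest of the Dohh effects, with a log2 fold change of -1.09 ± 0.28 (SE, adjusted p = 0.0037), and it was -0.98 without KO replicate 3.
TH17 cells had 478, 415 and 490.3 CPM in WT and 66, 46.5 and 39 CPM in KO libraries, the largest Fosl2 change of the 8 comparisons, with a log2 fold change of -3.19 ± 0.30 (SE, adjusted p = 7.24e-08). Treg cells went from 126, 85.2 and 94.7 CPM in WT to 35.1, 31.8 and 26.6 CPM in KO libraries, with a log2 fold change of -1.71 ± 0.29 (SE, adjusted p = 5.4e-05). The KO libraries of both subsets were close together, and without the 4 libraries high in myeloid markers the log2 fold changes were -2.78 (adjusted p = 0.000487) in TH17 cells and -1.57 (adjusted p = 0.0127) in Treg cells.

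Irf4 was lower in KO cells in all 8 comparisons, with every KO library below every WT library in each, and was called in 5. Across these comparisons 45.3% to 59.8% of all genes tested had an adjusted p below 0.05 with no fold threshold. The share of all genes with KO and WT libraries fully apart was not counted, for Irf4 or the other members. In Odc KO cells the fold changes lay below the threshold in TH1 and TH2 cells and near it in TH17 and Treg cells. TH1 cells had 1294, 1284, 1094 and 1116 CPM in WT and 894, 761, 710.4 and 749 CPM in KO libraries, a difference under 2-fold (log2 fold change -0.62 ± 0.11 SE, adjusted p = 6.31e-05). TH2 cells had 1312, 1133, 1099 and 998 CPM in WT and 734, 767 and 869 CPM in KO replicates 2 to 4, also under 2-fold (log2 fold change -0.52 ± 0.12 SE, adjusted p = 0.000732). The KO libraries of both subsets lay close together below the WT range.
TH17 cells had 1151, 1235, 1068 and 1176 CPM in WT and 579, 616, 451 and 633 CPM in KO libraries, with a log2 fold change of -1.02 ± 0.11 (SE, adjusted p = 2.76e-07). Treg cells had 847, 807, 799.5 and 1017 CPM in WT and 487, 409.7, 356 and 464 CPM in KO libraries, with a log2 fold change of -1.02 ± 0.11 (SE, adjusted p = 4.48e-08). Both values lay at the fold threshold. The TH17 value was -0.99 without WT replicate 2 and -0.92 without KO replicate 3, and the Treg value was -0.93 without WT replicate 4, -0.99 without KO replicate 2 and -0.94 without KO replicate 3, with adjusted p between 1.59e-07 and 2.93e-06 in these 5 fits.

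Irf4 fell in TH1, TH2 and TH17 cells of Dohh KO. TH1 cells had 721, 694 and 601 CPM in WT and 202, 188 and 190.5 CPM in KO libraries, with a log2 fold change of -1.79 ± 0.22 (SE, adjusted p = 1.57e-06). TH2 cells had 803, 685 and 756 CPM in WT and 224, 212 and 184 CPM in KO libraries, with a log2 fold change of -1.85 ± 0.22 (SE, adjusted p = 1.13e-06). The 3 KO libraries of each subset were close together, far below WT.
TH17 cells had 624, 640.3 and 579.6 CPM in WT and 185, 155 and 89.6 CPM in KO libraries, with a log2 fold change of -2.10 ± 0.22 (SE, adjusted p = 2.23e-07), or -1.70 (adjusted p = 7.42e-05) without the libraries high in myeloid markers. Treg cells, with the lowest WT level, had 370.2, 247 and 329.5 CPM in WT and 194, 213 and 133 CPM in KO libraries. This difference was under 2-fold (log2 fold change -0.81 ± 0.21 SE, adjusted p = 0.00295) and was -1.01 without WT replicate 2 and -0.73 (adjusted p = 0.0173) without the libraries high in myeloid markers. The KO levels of the 4 subsets lay within a narrower range of means, 143 to 207 CPM, than the WT levels, 316 to 748 CPM.

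Irf8, the other IRF partner, was called in no subset of the Odc table. In TH17 cells the WT libraries had 111, 115, 105 and 124 CPM and the KO libraries 134, 232, 176 and 194 CPM. All KO libraries were above WT, by less than 2-fold (log2 fold change 0.69 ± 0.16 SE, adjusted p = 0.000834).
Treg cells had 359, 404, 398 and 657 CPM in WT and 597, 622, 672 and 660.1 CPM in KO libraries, with a log2 fold change of 0.49 ± 0.15 (SE, adjusted p = 0.0077). WT replicate 4 stood apart from its group and overlapped the KO libraries. In TH1 and TH2 cells the log2 fold changes were 0.00066 ± 0.15 (SE, adjusted p = 0.999) and 0.0023 ± 0.17 (SE, adjusted p = 0.993). Irf8 is also a gene of myeloid and B cells, and their markers were set beside it in all 4 subsets. Of 8 myeloid and dendritic cell markers tested, 3, 0, 6 and 6 were called higher in TH1, TH2, TH17 and Treg cells and 1, 1, 0 and 0 lower. Of 7 B cell markers, 6, 6, 1 and 6 were called higher, and Ebf1 was called lower in TH17 cells. The summed B cell markers were at 121 to 464 CPM in KO against 35.3 to 75.8 CPM in WT TH1 libraries and at 342 to 582 against 52.8 to 122 CPM in TH2 libraries, the subsets in which Irf8 was nearly level. They were at 13 to 31.8 against 10.3 to 18.1 CPM in TH17 libraries and at 25.8 to 208 against 6.2 to 12.3 CPM in Treg libraries. The part of such cells in the Irf8 level was not tested.

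**Figure D3:**
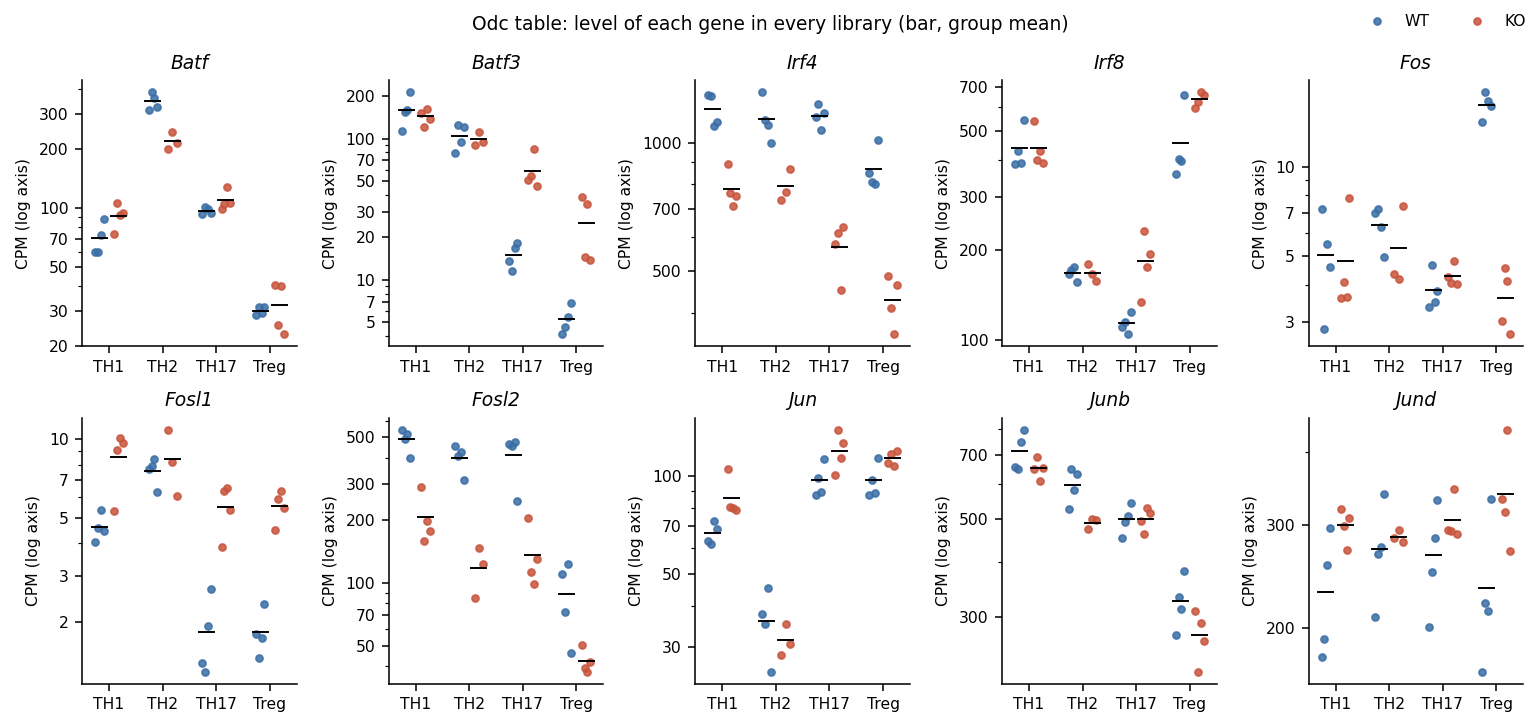
CPM of each member in every library of the Odc table, on log axes, with WT libraries in blue, KO libraries in red and a bar at each group mean (4 libraries per group, 3 for TH2 KO). KO libraries of Fosl2 and Irf4 lie below WT in each subset except for an overlap of Fosl2 in Treg cells, and Batf3 KO libraries lie above WT in TH17 and Treg cells.

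In both tables Batf3 was called higher in TH17 and Treg cells, the subsets in which WT cells had little of it. In TH17 cells of the Odc table the WT libraries had 13.6, 11.5, 16.9 and 18.4 CPM and the KO libraries 50.6, 54.4, 84.5 and 45.9 CPM. The groups were apart, with a log2 fold change of 1.96 ± 0.27 (SE, adjusted p = 5.28e-06).
In Treg cells the WT libraries had 4.13, 4.65, 5.42 and 6.88 CPM and the KO libraries 38.9, 14.5, 34.3 and 13.8 CPM. KO replicates 1 and 3 were more than 2-fold above replicates 2 and 4, all were above WT, and the log2 fold change was 2.27 ± 0.30 (SE, adjusted p = 7.34e-07).
In TH1 and TH2 cells, where WT levels were high, the groups overlapped and the log2 fold changes were -0.16 ± 0.25 (SE, adjusted p = 0.598) and -0.09 ± 0.27 (SE, adjusted p = 0.793). The highest KO level in TH17 and Treg cells, 84.5 CPM, was near the lowest WT level in TH2 cells, 79.2 CPM.

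Dohh KO cells had higher Batf3 levels in the same subsets. TH17 cells had 22.8, 15.1 and 12.5 CPM in WT and 170.3, 110.5 and 117 CPM in KO libraries, with a log2 fold change of 2.98 ± 0.44 (SE, adjusted p = 2.16e-05). Treg cells had 8.43, 8.39 and 7.67 CPM in WT and 146, 115 and 102 CPM in KO libraries, with a log2 fold change of 3.89 ± 0.47 (SE, adjusted p = 1.36e-06), the largest change of any member. The groups were far apart in both subsets, and KO levels approached those of WT TH1 cells, at 169, 166 and 170.4 CPM.
TH1 cells themselves had KO levels of 408, 955 and 122 CPM, on both sides of WT. The log2 fold change of 1.55 ± 0.41 (SE, adjusted p = 0.00415) was 0.66 with an adjusted p of 0.105 without KO replicate 2, and had an adjusted p of 0.08 when only the TH1 libraries were fitted. In TH2 cells the groups overlapped, with a log2 fold change of 0.16 ± 0.40 (SE, adjusted p = 0.765).

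Since Batf3 is also a gene of dendritic cells, its level was set beside the sum of 12 markers of myeloid and dendritic cells. In Odc KO cells that sum was 53.2, 129.1, 303.0 and 104.6 CPM in TH17 replicates 1 to 4 and 104.7, 155.3, 373.3 and 119.9 CPM in Treg replicates 1 to 4, against 25.9 to 53.1 CPM and 25.5 to 54.7 CPM in WT. Of the 12 markers, 8 were tested in the Odc table, and 6 of these were called higher in TH17 cells and 6 in Treg cells. Among Dohh libraries 9 were tested, and 8 of these were called higher in each of these subsets, or 3 in TH17 and 2 in Treg cells without the 4 libraries high in these markers. In the Dohh table, Batf3 was highest in KO replicate 1 of TH17 and of Treg cells, the library with the lowest myeloid sum of its group. In Odc KO Treg cells it was likewise highest in replicate 1, with the lowest sum, but in Odc KO TH17 cells it was highest in replicate 3, at 84.5 CPM, with the highest sum. Without replicates 2 and 3 of both groups the log2 fold change of Batf3 was 3.36 (adjusted p = 0.000342) in TH17 cells and 4.13 (adjusted p = 4.39e-05) in Treg cells. Of the defining dendritic cell markers, Clec9a and Siglech were at 0 in every WT group of both tables and in Odc KO TH17 cells, and Xcr1 was at 0 in 6 of the 8 WT groups. In Odc KO Treg cells none of the 12 markers was at 0, with Clec9a at a mean of 0.226 CPM, and in Dohh KO TH17 and Treg cells Itgam alone was at 0. Clec9a was called higher in Dohh KO TH17 and Treg cells, at means of 1.44 and 0.513 CPM. Over WT groups at 0, its fitted log2 fold changes were 6.79 and 5.39. Without the 4 libraries Clec9a was not called, with fitted values of 4.69 in TH17 and 0 in Treg cells. Zbtb46, a factor of conventional dendritic cells, was called higher in TH17 and Treg cells of both tables, from 0.897 to 3.20 and from 4.35 to 10.6 CPM in Odc libraries, and it was still called among Dohh libraries without those 4 (log2 fold change 2.54, adjusted p = 0.000259 and 1.44, adjusted p = 0.0107). Itgam was listed at 0 in every Dohh group. KO replicate 1, the library kept in the Dohh fit without those 4, still had a marker sum of 130 CPM in TH17 and 103 CPM in Treg cells. The WT libraries of these subsets reached at most 43.3 and 31.8 CPM. What cells with myeloid markers contribute to Batf3 was not tested in either table.

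**Figure D4:**
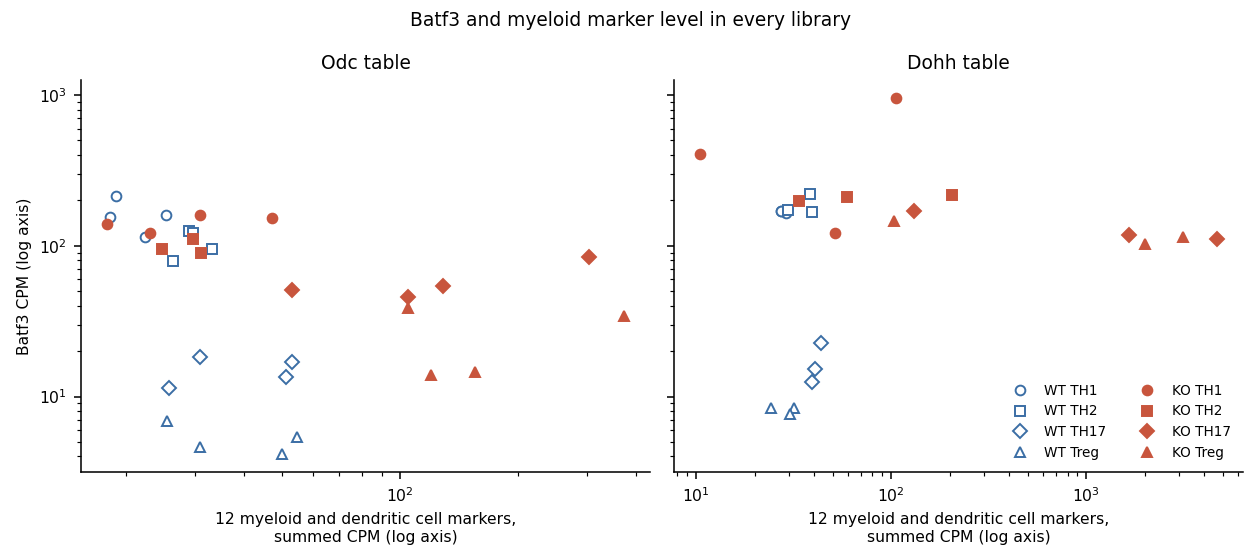
Batf3 CPM against the summed CPM of 12 myeloid and dendritic cell markers in every library of the Odc table (left) and the Dohh table (right), on log axes, with WT libraries open and KO libraries filled. KO TH17 and Treg libraries lie above the WT libraries of their own subset in Batf3, and their marker sums run from 53.2 to 4688 CPM.

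Batf, the partner that brings IRF4 to AP-1 sites, was called in 1 comparison. In Dohh KO TH1 cells it went from 51.5, 57.4 and 62 CPM in WT to 113, 160.3 and 93.5 CPM in KO libraries. The groups were apart, and the log2 fold change of 1.10 ± 0.18 (SE, adjusted p = 5.65e-05) was 0.86 without KO replicate 2.
Dohh KO Treg cells had 65.5, 60.6 and 46 CPM against 29.6, 30.4 and 30.1 CPM in WT, all above WT by less than 2-fold (log2 fold change 0.93 ± 0.19 SE, adjusted p = 0.000278). The value was 1.02 without KO replicate 3 and 1.10 (adjusted p = 0.00167) without the libraries high in myeloid markers.
In TH2 cells, where WT levels were highest, KO libraries of both tables lay below all WT libraries. They had 198, 244 and 212 CPM against 316, 386, 362 and 327 CPM in the Odc table (log2 fold change -0.67 ± 0.16 SE, adjusted p = 0.00062). In the Dohh table they had 312, 264 and 249 CPM against 357, 396 and 319.6 CPM (log2 fold change -0.38 ± 0.18 SE, adjusted p = 0.0921), so that the first difference was under 2-fold and the second did not pass the test.
The other Batf differences were not called either. They were 0.38 ± 0.15 (SE, adjusted p = 0.0264) in Odc KO TH1 cells and 0.44 ± 0.18 (SE, adjusted p = 0.0484) in Dohh KO TH17 cells on the log2 scale, both under 2-fold (the second was 0.76, adjusted p = 0.0195 without the libraries high in myeloid markers), and did not pass in TH17 and Treg cells of Odc KO (0.18 and 0.10, adjusted p = 0.319 and 0.594).

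**Figure D5:**
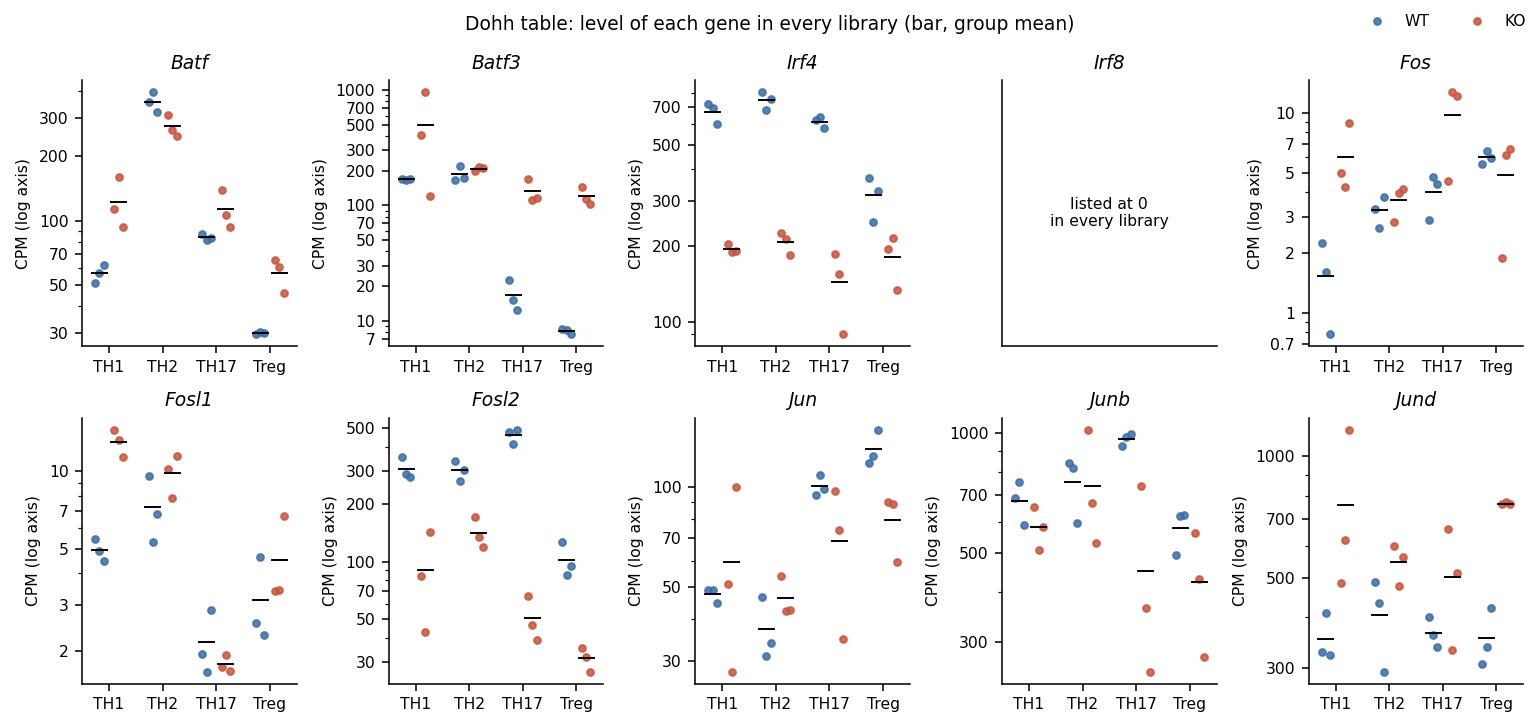
CPM of each member in every library of the Dohh table, on log axes, with WT libraries in blue, KO libraries in red and a bar at each group mean (3 libraries per group). Irf4 and Fosl2 KO libraries lie below WT in each subset, Batf3 KO libraries lie above WT in TH17 and Treg cells, and KO libraries of TH1 cells are spread widely for Batf3, Fosl2, Jun and Jund.

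Fos and Fosl1 were counted at low levels, between 0.785 and 17.8 CPM per library. Fos fell in Odc KO Treg cells, the subset with its highest WT level, from 14.1, 17.8, 16.6 and 16 CPM to 3.04, 4.58, 4.14 and 2.74 CPM. The groups were far apart, with a log2 fold change of -2.14 ± 0.25 (SE, adjusted p = 6.25e-08), whereas in the other 3 Odc subsets they overlapped, with log2 fold changes from -0.26 to 0.16.
In Dohh KO TH1 cells Fos went from 2.24, 1.59 and 0.785 CPM, with 7 counts in WT replicate 3, to 5.01, 4.26 and 8.82 CPM, with a log2 fold change of 1.95 ± 0.46 (SE, adjusted p = 0.00159). In Dohh KO TH17 cells it went from 2.91, 4.78 and 4.39 CPM to 4.57, 12.6 and 12.1 CPM, with a log2 fold change of 1.28 ± 0.43 (SE, adjusted p = 0.017). KO replicate 1 overlapped WT, and the call was lost without WT replicate 1 (adjusted p = 0.0789), without KO replicate 2 (0.076) and without KO replicate 3 (0.0541).
Replicates 2 and 3 are the TH17 libraries high in myeloid markers, and without these and their Treg counterparts the log2 fold change of Fos was 0.22 (adjusted p = 0.766) in TH17 cells. Dohh KO Treg cells had 1.88, 6.16 and 6.60 CPM against 5.57, 6.44 and 5.96 CPM in WT. KO replicate 1 alone lay below WT, so that the log2 fold change was -0.29 ± 0.43 (SE, adjusted p = 0.585) with all libraries and -1.69 (adjusted p = 0.0241) with replicate 1 as the single KO library.

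Fosl1, which encodes FRA-1, was higher in Odc KO cells of 2 subsets. TH17 cells had 1.39, 1.29, 1.92 and 2.67 CPM in WT and 3.85, 6.31, 6.49 and 5.33 CPM in KO libraries, with a log2 fold change of 1.58 ± 0.25 (SE, adjusted p = 2.12e-05). Treg cells had 1.80, 1.45, 1.73 and 2.33 CPM in WT and 4.49, 5.90, 6.34 and 5.47 CPM in KO libraries, with a log2 fold change of 1.60 ± 0.25 (SE, adjusted p = 4.64e-06). No KO library of these subsets reached down to WT.
In Odc KO TH1 cells the log2 fold change was 0.89 ± 0.23 (SE, adjusted p = 0.00152), and it was 1.05 without KO replicate 1, which at 5.29 CPM lay within WT.
Dohh KO TH1 cells had 14.5, 13.3 and 11.4 CPM against 5.46, 4.88 and 4.49 CPM in WT, with a log2 fold change of 1.40 ± 0.31 (SE, adjusted p = 0.000886). In this comparison Ccdc85b, which shares exon length with Fosl1 on the opposite strand, was also called higher (log2 fold change 1.28, adjusted p = 0.00762), and its part in the Fosl1 count was not tested. In Odc KO TH17 and Treg cells Ccdc85b had log2 fold changes of 0.38 and 0.67, under 2-fold. Dohh KO TH17 cells had 1.73, 1.93 and 1.66 CPM against 1.94, 1.66 and 2.89 CPM, overlapping groups with a log2 fold change of -0.27 ± 0.35 (SE, adjusted p = 0.539). Fosl1 did not pass either in TH2 cells of both tables (0.14 and 0.44, adjusted p = 0.615 and 0.249) or in Dohh KO Treg cells (0.54, adjusted p = 0.165).

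The JUN genes, which supply the partner of FOS and BATF proteins, were called in 3 of 24 comparisons. Of all genes tested, 8.35% to 17.5% were called higher and 7.21% to 15.2% lower per comparison. Jund was higher in Dohh KO Treg cells, at 762.3, 769 and 761.8 CPM against 306, 338 and 423 CPM in WT. The KO libraries were nearly equal and all above WT, with a log2 fold change of 1.10 ± 0.27 (SE, adjusted p = 0.00165) that was 0.95 without WT replicate 1 and 1.07 (adjusted p = 0.0246) without the libraries high in myeloid markers.
In Dohh KO TH1 cells Jund was at 486, 622 and 1163 CPM against 329, 410.2 and 323 CPM. KO replicate 3 was the highest by far, and the log2 fold change of 1.10 ± 0.27 (SE, adjusted p = 0.00196) was 0.66 without it. In the Odc table the nearest value was that of Treg cells, with 333, 316, 437 and 272 CPM against 169, 221, 214 and 333 CPM, overlapping groups and a log2 fold change of 0.54 ± 0.18 (SE, adjusted p = 0.0129).
Junb was lower in Dohh KO TH17 cells, at 736, 366 and 254 CPM against 926, 976 and 996 CPM in WT, with a log2 fold change of -1.10 ± 0.30 (SE, adjusted p = 0.00508). The KO libraries differed by almost 3-fold, the lower levels being those of replicates 2 and 3, which are high in myeloid markers. The value was -0.95 without KO replicate 2, -0.79 without KO replicate 3 and -0.36 (adjusted p = 0.376) without the 4 libraries high in myeloid markers. In the other 7 comparisons Junb had log2 fold changes between -0.45 and 0.0023.
Jun was called in none. In Dohh KO Treg cells it was at 90.2, 89.1 and 59.7 CPM against 118, 124 and 148 CPM in WT, all KO libraries below WT, with a log2 fold change of -0.71 ± 0.33 (SE, adjusted p = 0.0765). In Odc KO TH1 cells it was at 105, 80.2, 79.5 and 78.4 CPM against 63.1, 62, 73 and 69 CPM, all KO libraries above WT by less than 2-fold, with a log2 fold change of 0.36 ± 0.13 (SE, adjusted p = 0.0236).

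Whether the KO effect differed between subsets was asked of the interaction term between genotype and subset. It passed for 6 of 10 members in the Odc table, where 34.8% of all genes passed, and for 5 of 9 in the Dohh table, where 17.9% passed. Batf3 had the smallest adjusted p of the members in both tables (8.77e-06 and 0.000774), with effects that spanned 2.43 and 3.72 on the log2 scale. Fos passed in the Odc table (span 2.30, adjusted p = 3.28e-05) and in the Dohh table (span 2.24, adjusted p = 0.0413), with Treg cells the subset of the lowest effect in each. Batf passed in both (adjusted p = 0.0019 and 0.00101), and TH2 cells had its lowest effect in each. Irf4 passed in both as well (adjusted p = 0.0236 and 0.0144), but the order differed, since Treg cells were among the subsets with the larger Irf4 effects in the Odc table and had the smallest effect in the Dohh table. Fosl1 (adjusted p = 0.00305) and Irf8 (0.0257) passed in the Odc table. Fosl2 passed in the Dohh table, where its effect in TH17 cells was the largest (adjusted p = 0.00428), and not in the Odc table (0.39). Jun, Junb and Jund passed in neither. Without the 4 libraries high in myeloid markers Fosl2 no longer passed in the Dohh table. Its span there was 1.675, against 2.101 with all libraries. Batf, Batf3, Fos and Irf4 still passed in that fit, with spans of 1.507, 3.979, 3.65 and 1.134.

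Effects of Odc and Dohh deletion were contrasted in a joint model, each effect taken against its own WT libraries. The deletions lie in separate tables, and their KO libraries also differed in markers of other cell types. A difference of effects cannot be told apart from these differences. In TH1 cells 4 of 9 members differed, where 18.5% of all genes did, in TH2 cells 1, where 15.7% did, in TH17 cells 4, where 21.4% did, and in Treg cells 5, where 26.2% did. Irf4 had the more negative effect in Dohh KO cells in TH1, TH2 and TH17 cells, by 1.15 ± 0.22 (SE, adjusted p = 0.000274), 1.35 ± 0.23 (SE, adjusted p = 5.1e-05) and 1.02 ± 0.22 (SE, adjusted p = 0.00081), while in Treg cells the difference was -0.24 ± 0.22 (SE, adjusted p = 0.467).
Batf3 was higher by Dohh than by Odc deletion in TH1 cells (log2 difference of effects, Odc minus Dohh, -1.74 ± 0.47 SE, adjusted p = 0.0077) and Treg cells (-1.66 ± 0.54 SE, adjusted p = 0.0184). Batf differed in the same subsets, by -0.74 ± 0.23 (SE, adjusted p = 0.021) and -0.87 ± 0.24 (SE, adjusted p = 0.00478). The TH1 differences of both genes were lost without Dohh KO TH1 replicate 2.
Fos differed in TH1 cells, by -2.03 ± 0.50 (SE, adjusted p = 0.00338), and in Treg cells, by -1.89 ± 0.47 (SE, adjusted p = 0.00197), the Dohh effect being the higher one in both. Fosl1 went the other way, with the higher effect in Odc KO cells in TH17 cells (1.79 ± 0.42 SE, adjusted p = 0.00152) and Treg cells (1.02 ± 0.39 SE, adjusted p = 0.046). Fosl2 differed in TH17 cells alone, where its Dohh effect was the more negative by 1.56 ± 0.40 (SE, adjusted p = 0.00436), and Junb likewise, by 1.05 ± 0.29 (SE, adjusted p = 0.00691). Jun differed in Treg cells (0.89 ± 0.33 SE, adjusted p = 0.038) and Jund in none. With no filter on low counts, Fosl1 and Jun no longer differed in Treg cells. The number of members that differed in Treg cells ranged from 3 to 5 with 1 library left out, and 11 of 14 refits changed it. Without the 4 libraries high in myeloid markers, Fosl1 alone still differed in TH17 cells, and Batf, Batf3 and Fosl1 in Treg cells. In the Dohh table without those libraries, the TH17 effects of Fosl2, Irf4 and Junb were -2.78, -1.70 and -0.36. With all libraries these effects were -3.19, -2.10 and -1.10. The Treg effects of Fos and Jun were -1.69 and -0.56 without those libraries, against -0.29 and -0.71 with all.

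Other genes of the pathway were read from lists fixed with the members. Of 13 other AP-1 and related bZIP factors, 11 (Odc table) or 12 (Dohh table) were tested, and between 0 and 3 were called higher and between 1 and 3 lower per comparison, with medians of -0.268 to 0.0199 on the log2 scale. Bach2, a repressor that competes with AP-1 for related sites, was called lower in 6 of 8 comparisons, from 137 to 12.3 CPM in Dohh KO Treg cells (log2 fold change -3.47 ± 0.26 SE, adjusted p = 1.9e-09). Maf, the factor of IL-4 and IL-10 production, was called lower in 6 of 8, from 627 to 291 CPM in Odc KO TH17 cells (log2 fold change -1.10 ± 0.33 SE, adjusted p = 0.00772) and from 303 to 38.8 CPM in Dohh KO TH17 cells (log2 fold change -2.96 ± 0.35 SE, adjusted p = 1.36e-06). Atf3 was called higher in 3, among them Dohh KO TH17 cells (5.90 to 24.8 CPM, log2 fold change 2.06 ± 0.27 SE, adjusted p = 4.14e-06). Batf2, the third BATF gene, was called higher in all 4 Dohh comparisons at low levels, with WT means of 0.266 to 0.629 CPM, close to the counting floor, and KO means of 2.09 to 4.92 CPM. Without the 4 libraries high in myeloid markers Batf2 was not called in TH17 cells (log2 fold change 1.27, adjusted p = 0.389) or Treg cells (1.76, adjusted p = 0.298), and of the whole list 1 was called higher and 3 lower in TH17 cells and 1 and 2 in Treg cells, in place of 3 and 3 in each.

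Of the other IRF genes, Irf5 was called higher in 3 comparisons, among them Dohh KO TH17 cells, where it was 0.26, adjusted p = 0.702 without the 4 libraries high in myeloid markers, and Irf7 higher in 2 and lower in 1. Irf9 was called lower in Dohh KO Treg cells (log2 fold change -1.22 ± 0.23 SE, adjusted p = 0.000139).
Among 15 genes of the MAP kinase route that activates AP-1, of which 14 were tested in the Dohh table, 0 or 1 were called higher and 1 or 2 lower per comparison, with medians of -0.333 to 0.151. Map3k1, an upstream kinase of the JNK branch, was called lower in 7 of 8, for example from 219 to 62.8 CPM in Odc KO TH2 cells (log2 fold change -1.80 ± 0.27 SE, adjusted p = 6.56e-06). Mapk9, which encodes JNK2, was called lower in Dohh KO TH17 cells (log2 fold change -1.29 ± 0.15 SE, adjusted p = 9.69e-07), Map3k7 in Dohh KO Treg cells (-1.09 ± 0.15 SE, adjusted p = 3.96e-06), and Map2k2 was called higher in Dohh KO TH1 cells (1.07 ± 0.25 SE, adjusted p = 0.00132).

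Of 6 dual-specificity phosphatases that switch MAP kinases off, 0 to 2 were called in either direction per comparison, with medians of -0.69 to -0.0204. Dusp6 was called lower in TH2 cells of both tables, from 372 to 61.4 CPM (log2 fold change -2.60 ± 0.19 SE, adjusted p = 1.56e-10) and from 129.8 to 19.4 CPM (-2.74 ± 0.39 SE, adjusted p = 1.48e-05). Dusp4 was called lower in 3 Dohh comparisons, Dusp10 lower in 2 comparisons, and Dusp5 higher in 3 Dohh comparisons. Among 8 NFAT, ETS and NF-kB partner factors, 0 to 2 were called higher and 1 or 2 lower per comparison, with medians of -0.588 to 0.289. Ets1 was called lower in 8 of 8, with WT means of 551 to 1451 CPM and KO means of 233 to 604 CPM. Its log2 fold change without the 4 libraries high in myeloid markers was -0.97, adjusted p = 0.131 in Dohh KO TH17 cells and -1.03, adjusted p = 0.103 in Treg cells, neither of them a call. In that fit 0 genes of this list were called in TH17 cells, in place of 1 higher and 2 lower. Rel was called lower in Treg cells of both tables (log2 fold change -1.25 ± 0.14 SE, adjusted p = 6.51e-08 and -1.5 ± 0.37 SE, adjusted p = 0.00178). Spi1 was called higher in 7 of 8 and Spib in the 4 Odc comparisons. Spi1 was not called in Dohh KO TH17 cells without the 4 libraries (2.63, adjusted p = 0.0699). Both are also genes of myeloid and B cells. The counts of such markers in Odc KO cells stand beside Irf8 above, with 0 myeloid markers called higher in TH2 cells and 1 B cell marker in TH17 cells. Of those tested in Dohh KO cells, 3, 5, 8 and 8 of 9 myeloid markers and 1, 0, 1 and 2 of 6 B cell markers were called higher in TH1, TH2, TH17 and Treg cells, and the B cell gene Ebf1 was called lower in each. The part of such cells in Spi1 and Spib was not tested.

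Of 13 T cell genes that are known to need BATF, JUNB or IRF4, 3 to 9 were called higher and 2 to 5 lower per comparison, with medians of -0.717 to 2.71 and the most calls in Dohh KO Treg cells (9 higher, 3 lower, or 7 and 1 without the 4 libraries high in myeloid markers). Gzmb, the cytotoxic protease granzyme B, was called higher in 8 of 8, from 92.8 to 2507 CPM in Odc KO Treg cells (log2 fold change 4.76 ± 0.45 SE, adjusted p = 5.59e-09). In the same comparison 5 of 6 CD8 T and NK cell markers were called higher, with sums of 413 to 642 CPM in KO against 42.2 to 72.9 CPM in WT libraries, and their part in it was not tested. Ctla4, the inhibitory receptor, was called lower in 7 of 8 (for example log2 fold change -1.96 ± 0.38 SE, adjusted p = 0.000117 in Odc KO Treg cells), and was not called in Dohh KO Treg cells without the 4 libraries (-0.80, adjusted p = 0.0693). Il10 was called higher in 6 of 8. Il17a was called higher in 5 comparisons and lower in 2. It was lower in Odc KO TH17 cells, from 339 to 107 CPM (log2 fold change -1.67 ± 0.36 SE, adjusted p = 0.000555), and higher in Dohh KO TH17 cells, from 29.5 to 222 CPM (2.90 ± 0.51 SE, adjusted p = 0.000121).

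The subset label of WT cells was checked on its defining markers in the same tables. Ifng had its highest WT mean in TH1 cells, at 930.0 and 235 CPM, and Il17a in TH17 cells, at 339 and 29.5 CPM. Foxp3 had its highest WT mean in Treg cells, at 478 and 576 CPM, and Gata3 in TH2 cells, at 258 and 232 CPM.

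The genes most like Batf3, Fosl2 and Irf4 were sought among 12923 genes tested in both tables by the Pearson correlation of log2 CPM over the 16 group means, centred within each table. These are descriptions over 16 points that share WT groups and libraries. Gbp8 (r = 0.981), Rfc3 (0.957) and Casp4 (0.952) were most like Batf3. Gpr132 (0.973), Tspan3 (0.945) and Sigirr (0.942) were most like Fosl2, and Mta1 (0.959), Tulp3 (0.950) and Ago2 (0.950) were most like Irf4. When the 8 WT means alone were used, 0 of these 3 genes were kept for each member, and the closest were Slc25a42 (0.997) for Batf3, Aldh1l1 (0.993) for Fosl2 and Fam45a (0.994) for Irf4.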

How the data were processed

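Poly(A) RNA was sequenced from CD4+ T cells of 4 polarized subsets, with 31 libraries in the table of Odc deletion and 24 in the table of Dohh deletion. The authors deposited raw read counts per gene, and the deposited counts were used as they stand. The submitters' processing notes name STAR, featureCounts, DESeq2 and deepTools and the genome build mm10, and versions, the annotation release and the strand setting are not given in the sources used here.

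Each table was fitted on its own with edgeR 4.0.16 in R 4.3.3 by the quasi-likelihood test with TMM scaling, with all 8 groups in 1 fit, after the default filter on low counts, which kept 13839 genes of the Odc table and 13897 of the Dohh table. CPM are counts scaled to the TMM-corrected library size, and CPM per kb divide them by the exon length in GENCODE M21. Benjamini-Hochberg adjustment ran over all genes tested, and a gene was called at an adjusted p below 0.05 and a log2 fold change above 1 or below -1. Effects of Odc and Dohh deletion were compared in a joint fit of 14850 genes, in which the contrast cancels each table's own offset. Irf8 was left out there because the Dohh table lists it at 0. Sums over markers are sums of CPM.

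The members and the gene lists were chosen with earlier results of these data known. From each other list up to 4 genes were named, those called in the same direction in the most of the 8 KO comparisons. Some results are not reported here. Like genes were sought for members called in 4 or more. Alternatives were RLE size factors, DESeq2 1.42.0, no filter, a mean count of at least 50, a replicate block, limma 3.58.1 with voom and a donor correlation, a fit of the compared groups alone, glmTreat, no fold threshold and each library left out in turn. A fit without 4 libraries high in myeloid markers was chosen after seeing the data, and the single library left in each of these groups was then taken to vary like the others.

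No replicate pair held identical counts. Libraries of WT subsets with the same number deviated together in the Odc table, with correlations of 0.396 to 0.734 in 24 of 24 pairs, so the numbers pair these libraries. In the other sets of subsets 20 of 21 pairs (Odc KO), 17 of 18 (Dohh WT) and 13 of 18 (Dohh KO) were above 0.1. Those of WT and KO did not, with 7 of 15 pairs above 0.1 in the Odc table and 2 of 12 in the Dohh table. The main fits held no term for the pairing within a genotype. On simulated counts for KO TH17 cells, 89.5% of genes changed by 1.5 on the log2 scale and 98.0% of those changed by 3 were called in the Odc table (13290 genes), and 78.8% and 93.9% in the Dohh table (13433 genes). The interaction test recovered fewer, 77.9% and 93.9% in the Odc table and 55.6% and 87.8% in the Dohh table. False calls in the Odc and Dohh tables numbered 0 and 4 for the KO comparison and 10 and 5 for the interaction test. In these simulations every gene had the same mean in all groups, apart from the genes changed in KO TH17 cells. Far fewer genes changed than were called in the data, and libraries were drawn independently, with no pairing. Recovery and false calls in the real libraries may therefore differ. Promoters and their motifs were read with Python 3.11.15, and figures were drawn with matplotlib 3.10.9.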

Additional observations from a re-analysis of the deposited data

Results flagged for a closer look

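In 5 of the 70 groups of 4 libraries in the Odc table, the highest or lowest library stood apart from the other 3, and chance sets about 1 in 20 groups apart in this way. Fos was at 7.84 CPM in Odc KO TH1 replicate 4, against 3.62 to 4.1 CPM in the others. Fosl2 was at 248 CPM in Odc WT TH17 replicate 4, against 453 to 477 CPM. Jun was at 105 CPM in Odc KO TH1 replicate 1, against 78.4 to 80.2 CPM. Jund was at 347 CPM in Odc KO TH17 replicate 3, against 290 to 294 CPM, and Irf8 at 657 CPM in Odc WT Treg replicate 4, against 359 to 404 CPM.

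The KO effect differed between subsets by edgeR's interaction test for 6 members in the Odc table, with an adjusted p of 3.28e-05 for Fos, 0.0236 for Irf4, 0.00305 for Fosl1, 8.77e-06 for Batf3, 0.0019 for Batf and 0.0257 for Irf8. It differed for 5 members in the Dohh table, with an adjusted p of 0.0413 for Fos, 0.0144 for Irf4, 0.000774 for Batf3, 0.00428 for Fosl2 and 0.00101 for Batf.

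The effect of Odc deletion differed from that of Dohh deletion in 14 cases by edgeR's contrast of effects. In TH1 cells the adjusted p was 0.021 for Batf, 0.0077 for Batf3, 0.00338 for Fos and 0.000274 for Irf4, and in TH2 cells it was 5.1e-05 for Irf4. In TH17 cells it was 0.00152 for Fosl1, 0.00436 for Fosl2, 0.00691 for Junb and 0.00081 for Irf4. In Treg cells it was 0.00478 for Batf, 0.0184 for Batf3, 0.00197 for Fos, 0.046 for Fosl1 and 0.038 for Jun.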

How the results depend on the processing

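Against a 2-fold change itself (glmTreat), the number of members called went from 7 to 2 in Dohh KO TH1 cells, 2 to 1 in Dohh KO TH2, 5 to 3 in Dohh KO TH17, 1 to 0 in Odc KO TH1, 3 to 2 in Dohh KO Treg, 4 to 1 in Odc KO TH17 and 5 to 3 in Odc KO Treg cells. With no fold threshold it went from 5 to 6 in Dohh KO TH17, 3 to 5 in Dohh KO Treg, 4 to 5 in Odc KO TH17, 1 to 5 in Odc KO TH1, 1 to 4 in Odc KO TH2 and 5 to 8 in Odc KO Treg cells, and from 8 to 9 over WT subsets of the Odc table. A mean count of at least 50 left Fos untested in the Dohh table and Fos and Fosl1 in the Odc table and the joint fit, and took Odc KO Treg cells from 5 to 3 and the Treg difference between Odc and Dohh from 5 to 3, which was also 3 with no filter (without Fosl1 and Jun). Without the 4 libraries high in myeloid markers, Dohh KO TH17 cells had 3 members called, Dohh KO Treg cells 5, and 1 and 3 members differed between Odc and Dohh in TH17 and Treg cells. With 1 library left out at a time, members called ranged from 1 to 2 in Odc KO TH1, 1 to 1 in TH2, 3 to 4 in TH17 and 4 to 5 in Treg cells, and from 5 to 7, 1 to 2, 3 to 5 and 2 to 4 in Dohh KO TH1, TH2, TH17 and Treg cells. Over WT subsets they ranged from 8 to 8 in the Odc and 6 to 7 in the Dohh table. Effects that differed between subsets ranged from 5 to 7 in the Odc and 3 to 6 in the Dohh table, where 18 of 24 refits changed the count, and those that differed between Odc and Dohh from 2 to 5, 1 to 1, 4 to 6 and 3 to 5 in TH1, TH2, TH17 and Treg cells. With the replicate number as a block, none of these 16 counts changed (8 and 7 over WT subsets, for example). That block gave WT and KO libraries of the same number 1 shared term, although these did not deviate together. It therefore cannot show whether pairing within a genotype alters the counts. In the limma fits, libraries of the same genotype and number had a correlation of 0.309 in the Odc and 0.0244 in the Dohh table. No log2 fold change of a called member changed sign under the alternatives run. Pairs of a log2 fold change and an alternative other than leaving out 1 library were also counted. A call was gained in 16 and lost in 19, some fold changes entering under more than 1 alternative. Most came from the fold rule itself, as gains with no fold threshold and losses with glmTreat. The other gains were Fos and Batf in Dohh KO Treg cells without the 4 libraries high in myeloid markers. The other losses were Fos and Junb in Dohh KO TH17 cells without those libraries, Batf3 in Dohh KO TH1 cells with the compared groups alone, and Fosl2 in Odc KO Treg cells in limma. Fos and Fosl1 had the lowest libraries of the members, at 0.785 and 1.29 CPM against a floor of 0.226 to 0.499 CPM, and a limit from depth was not tested.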
